A study of Mus musculus with 12 samples.

Results

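The genes described here are 10 components of the circadian clock, measured by RNA-seq in pancreatic islets of male C57BL/6 mice. They are the D-box transcription factors Dbp and Tef, the nuclear receptors Nr1d1 and Nr1d2, the period genes Per1, Per2 and Per3, the activators Arntl and Npas2, and the cryptochrome Cry1. They were chosen by name among the 37991 genes of the count table, with the differences between Tg7 and Wt islets in these same libraries already known, so those differences are given as a description and no test of them is read here. Each name matched 1 row. Tg7 mice overexpress miR-7a2 specifically in β-cells, and Wt mice are their littermates. Islets were taken at 2 weeks (2w) and 12 weeks (12w) of age, with 3 libraries in each of the groups 2w Wt, 2w Tg7, 12w Wt and 12w Tg7. Islets were freed by Liberase digestion and a Histopaque gradient, and each library was a pool of at least 3 animals, so the spread between libraries is not the spread between single mice. The mice were kept on a 12 h light/dark cycle. The hour at which islets were taken is not stated in the sources consulted, and each group is a snapshot without a time series, so phase cannot be read from it.

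Most mammalian cells carry a clock built on feedback between transcription factors. BMAL1, the product of Arntl, pairs with CLOCK or NPAS2 and binds E-box motifs, switching on the Per, Cry, Nr1d and Dbp genes, whose PER and CRY proteins then repress BMAL1 itself. The nuclear receptors made by Nr1d1 and Nr1d2 (REV-ERBα and REV-ERBβ) repress Arntl and Npas2 through RORE motifs, and DBP, TEF and HLF act at D-boxes, so that in rhythmic tissues Dbp and Nr1d1 peak roughly when Arntl and Npas2 are low. Islets hold such a clock, and it is known to affect insulin release.

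The motifs that tie these genes together were searched on both strands of the RefSeq promoter windows (GRCm38.p6), which span 250 bases before to 50 after each start site. Windows were found for 9 of the 10 genes, 12 windows in all, and Per2 had none. The E-box searched was CACGTG, the D-box TTATGTAA or TTACGTAA, the RORE core TAGGTCA or TGGGTCA, and the cAMP response element TGACGTCA. The E-box was present in 4 of the 12 windows (3 genes), where 7.15% of all 32851 promoter windows held it, the D-box in 1 window, against 1.06%, and the RORE core in 1 window, against 6.45%. The cAMP response element was in none, against 1.79%. A match is only a run of letters and was not tested for binding. The windows of Dbp, Nr1d1, Nr1d2 and Npas2 held none of these letters.

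Of the 6 windows that held a match, 5 are printed 5′ to 3′ on the gene's strand with the matched motif in capitals. They are shown because they place the binding letters of the activators, of the D-box factors and of the REV-ERB receptors on the members whose levels are given below. Per3 lies at chr4:151044616-151044915 on the minus strand, with D-boxes starting 205 and 158 bases before the start site. Tef, whose first window is shown, lies at chr15:81802423-81802722 on the plus strand, with an E-box 127 bases before the start. Its second window, not printed, held an E-box 138 bases before that start. Per1, first window, lies at chr11:69098699-69098998 on the plus strand, with an E-box 166 bases before the start, and Cry1 at chr10:85185005-85185304 on the minus strand, with an E-box 60 bases before it. Arntl, second window, lies at chr7:113207261-113207560 on the plus strand, with a RORE core 30 bases after the start.
Per3: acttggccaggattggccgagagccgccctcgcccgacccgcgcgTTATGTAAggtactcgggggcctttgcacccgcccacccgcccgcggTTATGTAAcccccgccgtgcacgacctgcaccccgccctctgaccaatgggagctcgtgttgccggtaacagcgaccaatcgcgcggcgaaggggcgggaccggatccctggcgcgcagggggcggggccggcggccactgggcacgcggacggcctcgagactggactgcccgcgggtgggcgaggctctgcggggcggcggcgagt
Tef: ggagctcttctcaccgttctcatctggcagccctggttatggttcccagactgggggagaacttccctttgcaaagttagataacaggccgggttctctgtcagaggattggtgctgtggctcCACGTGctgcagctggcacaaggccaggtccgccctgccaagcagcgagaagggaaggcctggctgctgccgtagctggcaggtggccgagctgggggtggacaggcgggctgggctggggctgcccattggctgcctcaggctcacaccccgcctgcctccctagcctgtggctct
Per1: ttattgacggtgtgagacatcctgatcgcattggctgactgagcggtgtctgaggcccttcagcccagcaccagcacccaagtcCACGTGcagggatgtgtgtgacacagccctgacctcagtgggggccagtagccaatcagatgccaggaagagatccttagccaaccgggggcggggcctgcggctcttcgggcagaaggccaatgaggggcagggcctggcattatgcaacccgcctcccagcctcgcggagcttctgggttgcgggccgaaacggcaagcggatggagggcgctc
Cry1: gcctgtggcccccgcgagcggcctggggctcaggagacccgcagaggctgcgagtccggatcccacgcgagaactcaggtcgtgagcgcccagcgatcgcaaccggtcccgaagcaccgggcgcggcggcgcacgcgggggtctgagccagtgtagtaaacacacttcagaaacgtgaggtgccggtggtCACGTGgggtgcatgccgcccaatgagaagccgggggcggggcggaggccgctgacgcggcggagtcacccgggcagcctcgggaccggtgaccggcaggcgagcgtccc
Arntl: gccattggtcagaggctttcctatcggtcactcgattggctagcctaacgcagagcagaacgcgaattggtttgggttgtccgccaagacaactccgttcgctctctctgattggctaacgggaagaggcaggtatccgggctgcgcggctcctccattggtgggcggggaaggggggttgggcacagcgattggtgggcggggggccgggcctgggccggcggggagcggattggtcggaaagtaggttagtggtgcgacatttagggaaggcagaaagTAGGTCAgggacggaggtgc

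The transgene's product acts by pairing with 3′ UTRs, so the seed of miR-7 was compared with the members as well. The mature mouse sequence from RefSeq is printed with its seed, bases 2 to 8, in capitals.
miR-7a-5p: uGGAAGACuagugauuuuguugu
The longest annotated 3′ UTR (mm9) was searched for the reverse complement of these 7 bases, and for that of bases 2 to 7 followed by an A. None of the 10 genes had a match of either kind, against 24.9% of 14406 tested genes with such a UTR. The members' UTRs ran from 275 bases (Dbp) to 3180 bases (Tef), and the median over the tested genes was 1151 bases.

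Total counts ran from 11610697 to 17515758 per library, and all 10 genes were among the 15961 tested after low counts were removed. Levels are CPM, that is counts scaled to a common library size with the TMM factors of edgeR. Differences are log2 fold changes with standard errors (SE) from edgeR's quasi-likelihood fit, and a gene was called at a Benjamini-Hochberg adjusted p under 0.05. The insulin genes Ins1 and Ins2 took 10.1% to 15.4% of counts in 2w Wt libraries and 1.84% to 4.09% in 2w Tg7 libraries. At 12w they took 27.0% and 30.0% in Wt replicates 2 and 1, 14.8% in Wt replicate 4, and 8.08% to 8.24% in Tg7. The 12w Wt replicate 4 therefore stood apart from its group, also in several clock genes, and results that rest on it are given with and without it. In bulk islets, fewer cells of a type and less RNA per cell cannot be told apart.

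Dbp, a D-box activator and one of the strongest rhythmic outputs of the clock, had the largest difference between Tg7 and Wt islets of the 10 genes at both ages. It read 29.5, 27.1 and 27.3 CPM in the 2w Wt libraries and 78.0, 101 and 83.0 CPM in the 2w Tg7 libraries. At 12w it read 64.7, 82.3 and 67.3 CPM in Wt and 250, 268 and 275 CPM in Tg7. Every Tg7 library lay above every Wt library of its age, and every 2w Tg7 library lay above 2 of the 3 Wt libraries of 12w. The log2 fold change was 1.64 (SE 0.13) at 2w and 1.89 (SE 0.13) at 12w, or 3.12-fold and 3.70-fold.

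Tef, a D-box activator of the same family, moved less. Its levels were 77.2, 64.7 and 70.3 CPM in 2w Wt against 106, 133 and 124 CPM in 2w Tg7. At 12w they were 104, 112 and 144 CPM in Wt against 165, 171 and 166 CPM in Tg7. The groups did not overlap within either age, although 12w Wt replicate 4 sat closest to the Tg7 libraries. The difference was 0.78 (SE 0.14) at 2w and 0.48 (SE 0.14) at 12w on the log2 scale. The 12w value was 0.36 without Wt replicate 1 and 0.43 without Wt replicate 2, and neither was called, nor was it called without Tg7 replicate 2 (0.47) or 3 (0.49).

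Nr1d1, which encodes the repressor REV-ERBα, followed Dbp closely. The 2w Wt libraries gave 25.0, 26.3 and 30.0 CPM, against 72.4, 71.2 and 60.3 CPM in 2w Tg7. At 12w the Wt libraries gave 67.3, 59.8 and 57.4 CPM, against 169, 204 and 187 CPM in Tg7. No Wt library reached a Tg7 library of its age, and the 2w Tg7 levels overlapped those of 12w Wt. The log2 fold change was 1.33 (SE 0.13) at 2w and 1.60 (SE 0.13) at 12w.

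Nr1d2, which encodes the related repressor REV-ERBβ, was separated between genotypes at 2w, with 64.0, 59.8 and 66.7 CPM in Wt and 117, 113 and 102 CPM in Tg7. At 12w it gave 99.8, 103 and 220 CPM in Wt and 158, 156 and 173 CPM in Tg7. The value of 220 CPM came from Wt replicate 4 and was the highest of all 12 libraries, so the 12w groups overlapped. The log2 fold change was 0.80 (SE 0.23) at 2w and 0.20 (SE 0.23) at 12w, and the 12w difference became 0.68 (SE 0.10) without Wt replicate 4, when it was called. Without Wt replicate 1 it was −0.019. The 2w call was lost without any 1 of the 2w libraries or of the 12w Tg7 libraries, at values from 0.76 to 0.84.

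Dbp and Nr1d1 overlap other genes on the opposite strand, and the sources consulted do not state whether reads were counted by strand. Dbp (chr7:52960458-52965525, mm9, plus strand) shares 491 exon bases, 16.7% of its exons, with Sphk2, a sphingosine kinase gene. Sphk2 differed the other way, by −0.40 (SE 0.13) at 2w and −0.49 (SE 0.13) at 12w. Nr1d1 (chr11:98629246-98636647, mm9, minus strand) shares 263 exon bases, 8.42% of its exons, with Thra, the thyroid hormone receptor α gene. Thra was also higher in Tg7 islets, by 0.68 (SE 0.15) at 2w and 0.79 (SE 0.15) at 12w. Tef shares 193 exon bases, 2.45% of its exons, with the long noncoding gene Gm17597, which had 3 to 27 counts per library. Reads in the shared exon bases of each pair cannot be told apart without strand, and their part in these differences was not tested.

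**Figure D1:**
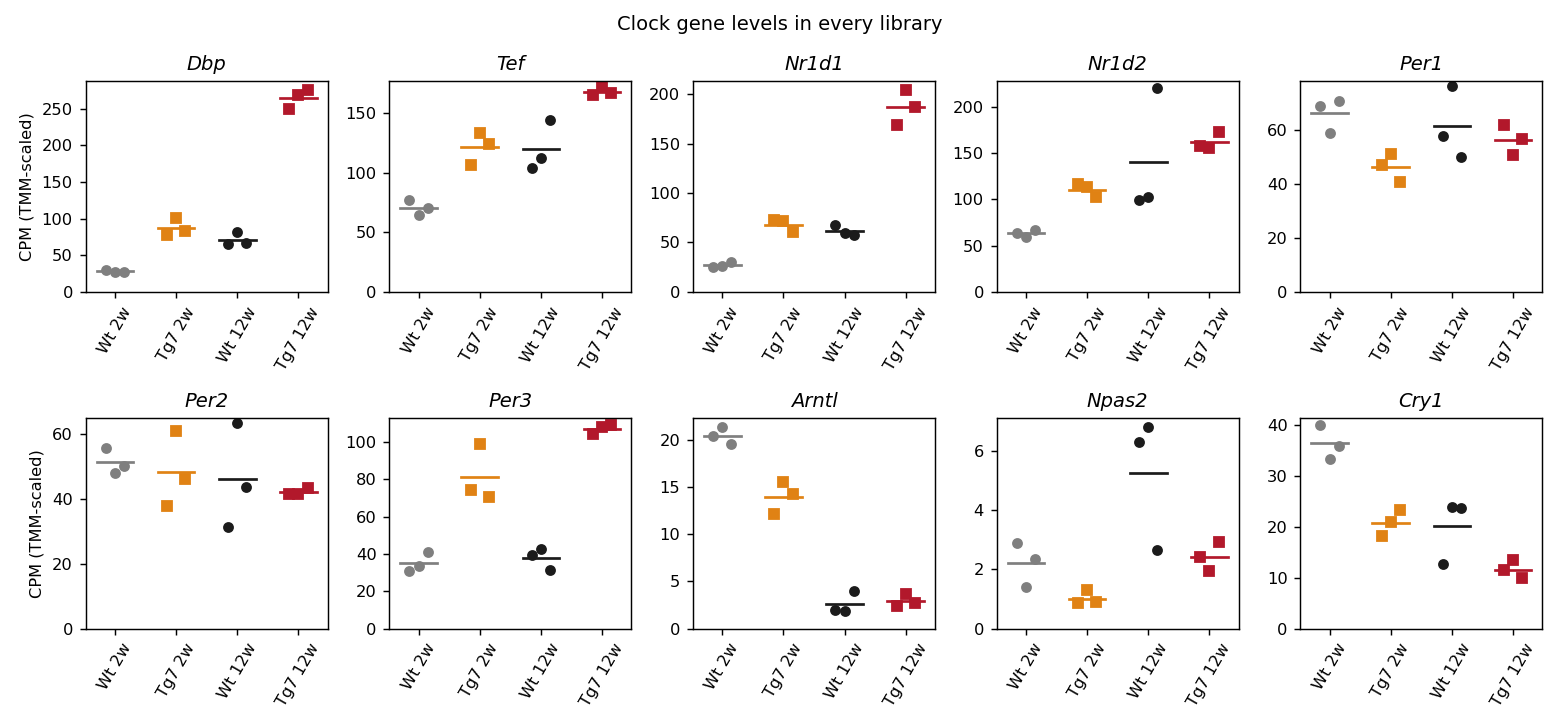
Levels of the 10 clock genes in TMM-scaled CPM (y axis, from 0, own scale per gene) in each of the 12 libraries. Points are libraries, circles Wt and squares Tg7, and lines are group means (n = 3). Dbp, Tef, Nr1d1 and Per3 show Tg7 libraries above every Wt library of the same age, and Per2 groups overlap. The 12w Wt replicate 4 is the high point in Nr1d2 and the lowest of its group in Npas2.

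The period genes, whose proteins repress BMAL1, did not move as a group. Per3 read 30.9, 33.7 and 41.0 CPM in 2w Wt and 74.1, 99.0 and 70.3 CPM in 2w Tg7, then 39.3, 42.6 and 31.3 CPM in 12w Wt and 104, 108 and 109 CPM in 12w Tg7. The genotypes were fully separated at both ages, and Per3 was the only period gene of which this was true. Its log2 fold change was 1.20 (SE 0.16) at 2w and 1.51 (SE 0.16) at 12w.

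Per1, the period gene most responsive to acute signals, lay the other way at 2w, with 69.1, 59.1 and 71.0 CPM in Wt and 47.2, 51.0 and 40.7 CPM in Tg7. At 12w its levels were 58.0, 76.5 and 50.2 CPM in Wt and 61.9, 50.8 and 56.6 CPM in Tg7. The groups were separate at 2w and interleaved at 12w. The difference was −0.52 (SE 0.16) at 2w, just inside the threshold, and −0.13 (SE 0.16) at 12w. The 2w call was lost without any 1 of the 2w libraries or of the 12w Tg7 libraries, with values from −0.60 to −0.45.

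Per2 levels spanned 48.1 to 55.8 CPM among the Wt and 37.7 to 61.1 CPM among the Tg7 libraries of 2w. At 12w they spanned 31.5 to 63.5 CPM in Wt and 41.6 to 43.3 CPM in Tg7. The ranges overlapped at both ages. The difference was −0.09 (SE 0.21) at 2w and −0.14 (SE 0.22) at 12w. The log2 level of Per3 minus that of Per1 was compared between groups, since the genes differ in length, and was −0.92 ± 0.21 (SD, n = 3) in 2w Wt and 0.80 ± 0.15 in 2w Tg7, and at −0.69 ± 0.14 in 12w Wt and 0.93 ± 0.17 in 12w Tg7. Per kilobase of exon, group mean Per1 levels were 11.8 and 10.9 CPM in 2w and 12w Wt, above Per3 at 3.66 and 3.93 CPM. In 2w Tg7 the per kilobase levels were 8.23 CPM for Per1 and 8.44 CPM for Per3, and in 12w Tg7 10.0 and 11.2 CPM.

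Arntl encodes BMAL1, the activator without which the clock stops. Its levels were 20.4, 21.4 and 19.6 CPM in 2w Wt and 12.2, 15.5 and 14.3 CPM in 2w Tg7, with no overlap. At 12w it was low in every library, at 2.02, 1.83 and 4.0 CPM in Wt and 2.37, 3.71 and 2.75 CPM in Tg7, and the genotypes overlapped because of Wt replicate 4. The difference was −0.55 (SE 0.24) at 2w and 0.13 (SE 0.29) at 12w. Without Wt replicate 4 the fit gave −0.55 (SE 0.17) at 2w, which was then called, and 0.63 (SE 0.26) at 12w, which was not. The 12w sign was not fixed, since the value was −0.03 without Wt replicate 1, −0.09 without Wt replicate 2 and −0.07 without Tg7 replicate 2.

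Npas2, a partner of BMAL1 that can stand in for CLOCK, was at a low level throughout, with 16 to 86 counts per library. It read 2.91, 1.40 and 2.34 CPM in 2w Wt and 0.854, 1.30 and 0.894 CPM in 2w Tg7. At 12w the levels were 6.30, 6.83 and 2.67 CPM in Wt and 2.42, 1.94 and 2.92 CPM in Tg7. At 2w the genotypes were separate by a narrow gap, and at 12w Wt replicate 4 fell among the Tg7 libraries. The log2 fold change was −1.14 (SE 0.43) at 2w and −1.11 (SE 0.40) at 12w, neither called with edgeR, while DESeq2 called the 12w difference. Without Wt replicate 4 the 12w value was −1.43 (SE 0.37) and was called.

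Cry1, the cryptochrome that represses BMAL1 late in the cycle, was lower in Tg7 islets. Its levels were 39.9, 33.2 and 35.9 CPM in 2w Wt and 18.2, 20.9 and 23.3 CPM in 2w Tg7. At 12w they were 12.7, 23.9 and 23.6 CPM in Wt and 11.4, 13.4 and 9.84 CPM in Tg7. The groups were far apart at 2w, while at 12w Wt replicate 1 lay inside the Tg7 range. The difference was −0.80 (SE 0.21) at 2w and −0.81 (SE 0.22) at 12w. The call at 12w was lost without Wt replicate 2 (−0.67), Tg7 replicate 1 (−0.78) or Tg7 replicate 3 (−0.70). The call at 2w was lost without Wt replicate 1 (−0.74), Wt replicate 3 (−0.82), Tg7 replicate 1 (−0.71) or Tg7 replicate 2 (−0.81).

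Counted over the members, 5 of 10 were called upregulated in 2w Tg7 islets (Dbp, Tef, Nr1d1, Nr1d2 and Per3) and 2 downregulated (Per1 and Cry1), where 6.07% of all tested genes were called up and 4.55% down. At 12w, 4 were called up (Dbp, Tef, Nr1d1 and Per3) and 1 down (Cry1), where 12.5% of tested genes were called up and 11.2% down. These counts come from the comparisons on which the genes were chosen, and nothing is read from them. The median log2 fold change of the 10 genes was 0.34 at 2w and 0.17 at 12w, beside 0.03 and −0.01 over all tested genes. Without 12w Wt replicate 4, 9 members were called at 2w, where 18.7% of tested genes were called in either direction, and 7 at 12w, where 23.8% were. Arntl and Npas2 were the additions at 2w, and Nr1d2 and Npas2 at 12w. Dbp, Nr1d1 and Per3 were called at both ages under each of the 19 alternative settings tried, with log2 values of at least 1.03.

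**Figure D2:**
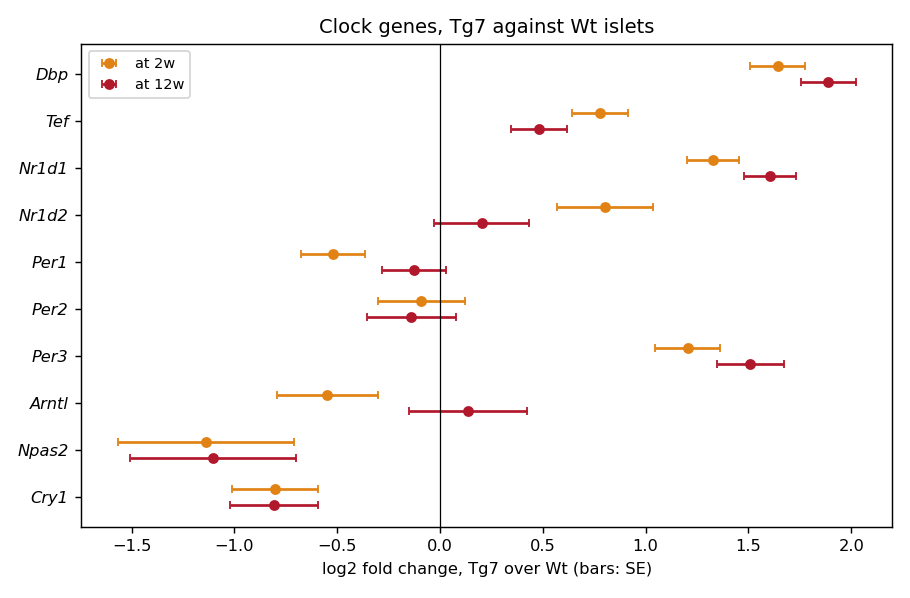
Log2 fold change of each clock gene, Tg7 over Wt, at 2w and 12w (x axis; points are estimates, bars SE, n = 3 libraries per group). Dbp, Nr1d1 and Per3 lie above 1 at both ages, Npas2, Cry1, Per1 and Per2 lie below 0 at both, and Arntl lies below 0 only at 2w.

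The effect of the transgene was then compared between ages by the interaction term of the same fit. None of the 10 members was called, where 1.18% of tested genes were, and none had an unadjusted p under 0.05 or was called with DESeq2. The differences between the ages ran from −0.60 to 0.68 with SE of 0.18 to 0.52, so changes of such a size could not be resolved with 3 libraries per group. Without 12w Wt replicate 4 no member was called either, and Arntl had a difference of 1.18 (SE 0.31).

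The libraries were next laid out on the axis from the Dbp and Nr1d1 side of the clock to the Arntl and Npas2 side, which is read between groups only. The log2 level of Dbp minus that of Arntl was 0.45 ± 0.10 (SD, n = 3) in 2w Wt, 2.63 ± 0.09 in 2w Tg7, 4.78 ± 0.70 in 12w Wt and 6.45 ± 0.28 in 12w Tg7. The 12 libraries fell into 4 groups without overlap. Nr1d1 minus Npas2 was 3.59 ± 0.53 in 2w Wt, 5.92 ± 0.28 in 2w Tg7, 3.62 ± 0.66 in 12w Wt and 6.21 ± 0.37 in 12w Tg7, which separated the genotypes but not the ages. Dbp minus Cry1 was −0.37 ± 0.07 in 2w Wt and 2.06 ± 0.22 in 2w Tg7, then 1.87 ± 0.42 in 12w Wt and 4.51 ± 0.25 in 12w Tg7.

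The direction was thus opposite on the pair of sides at 2w, where Dbp, Tef, Nr1d1, Nr1d2 and Per3 had positive estimates and Arntl, Npas2 and Cry1 negative ones, those of Arntl and Npas2 not being called. At 12w Dbp, Tef, Nr1d1 and Per3 were again higher and Npas2 and Cry1 again lower, while Arntl lay between −0.09 and 0.64 over the settings tried. Per1 and Per2, which belong to the Dbp side by their usual phase, did not share its direction at either age, with estimates of −0.52 and −0.09 at 2w and −0.13 and −0.14 at 12w. These pair differences use the values on which the genes were chosen and carry no test.

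**Figure D3:**
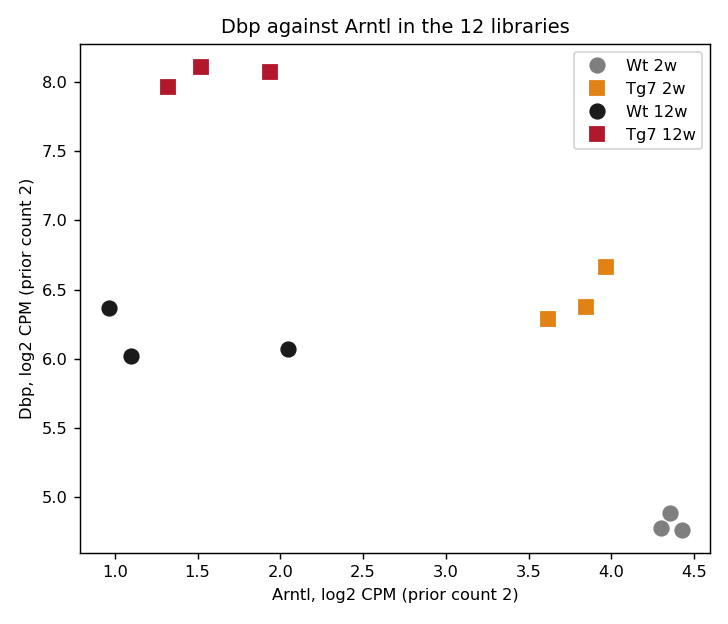
Dbp against Arntl, both in log2 CPM with a prior count of 2, in the 12 libraries (circles Wt, squares Tg7). Dbp minus Arntl averages 0.45 in 2w Wt at the lower right, 2.63 in 2w Tg7, 4.78 in 12w Wt and 6.45 in 12w Tg7 at the upper left. At 12w the genotypes differ along Dbp and overlap along Arntl.

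The ages were compared in the same libraries from which the genes were chosen, so the members' differences with age are a description too, with no test read from them. In Wt islets 4 members were called higher at 12w than at 2w, where 7.9% of tested genes were called up, and 2 lower, where 7.91% were called down. In Tg7 islets 3 were called up, against 7.02% of tested genes, and 2 down, against 6.01%. Arntl changed most, by −2.93 (SE 0.28) in Wt and −2.24 (SE 0.27) in Tg7, or 7.60-fold and 4.74-fold lower at 12w. Every 12w library was below every 2w library of its genotype for this gene.

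Dbp was higher at 12w by 1.35 (SE 0.13) in Wt and 1.60 (SE 0.13) in Tg7. Nr1d1 was higher by 1.18 (SE 0.13) and 1.46 (SE 0.13). Both genes were higher at 12w in both genotypes, with no overlap between the ages. Tef was higher by 0.77 (SE 0.14) in Wt and by 0.47 (SE 0.14) in Tg7, and the latter call was lost without any 1 of 7 libraries, at values from 0.38 to 0.49. With scaling by library size alone the Wt value of Tef was 0.39 and not called. Nr1d2 was higher in Wt by 1.15 (SE 0.23), and by 0.67 (SE 0.10) without Wt replicate 4, while in Tg7 it differed by 0.55 (SE 0.23), uncalled, and by 0.56 (SE 0.09), called, without that library.

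Npas2 did not go with Arntl across age. Its estimates were 1.23 (SE 0.41) in Wt and 1.26 (SE 0.43) in Tg7, above 0 where Arntl was below, and neither was called with edgeR, while DESeq2 called both. Without 12w Wt replicate 4 the Npas2 values were 1.55 and 1.26, and both were called. Cry1 went the way of Arntl, with −0.84 (SE 0.21) in Wt and −0.85 (SE 0.21) in Tg7, both called. These calls were lost in Wt without 2w replicate 1 (−0.78) or 3 (−0.86), and in Tg7 without 2w replicate 3 (−0.75) or 12w replicate 1 (−0.84) or 3 (−0.74). The 3 period genes were not called in either genotype, with estimates from −0.20 to 0.40. Per3 in Tg7 was called at 0.57 without 2w Tg7 replicate 2, and at 0.41 without 12w Wt replicate 4. It was also called, at 0.41, in a fit with the replicate number as a block. With scaling by library size alone Per1 in Wt was called lower at 12w, at −0.51. Leaving out 12w Wt replicate 4 brought the calls to 7 members in Wt, where 24.4% of tested genes were called in either direction, and to 8 in Tg7, where 20.2% were.

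**Figure D4:**
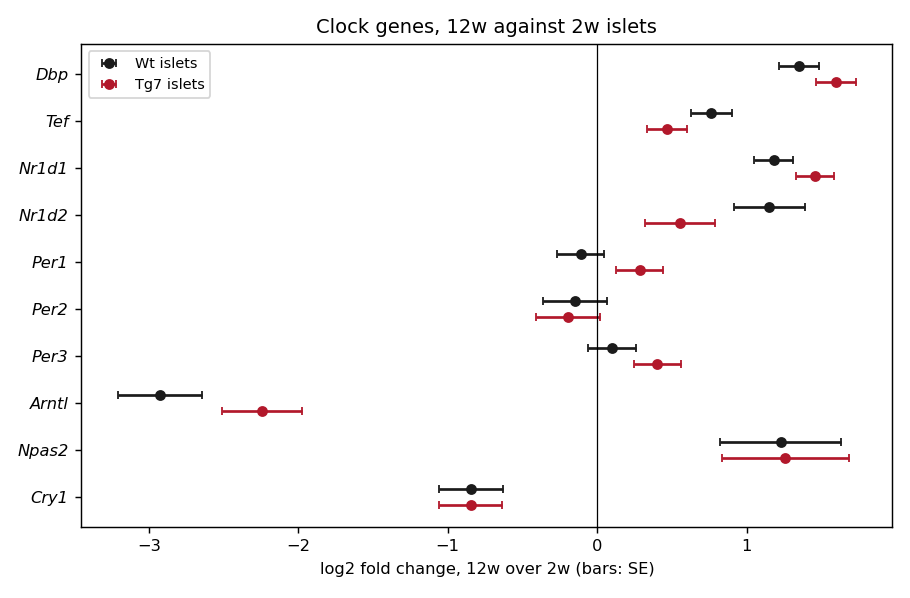
Log2 fold change of each clock gene, 12w over 2w, in Wt and in Tg7 islets (x axis; points are estimates, bars SE, n = 3 libraries per group). Arntl lies at −2.93 and −2.24, Npas2 on the opposite side at 1.23 and 1.26, and Dbp, Nr1d1 and Tef above 0 in both genotypes.

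The rest of the clock was read from a list of 21 genes, all of them tested. This list was also drawn up with earlier results of these data known, so its calls and adjusted p-values are a description. The same holds for the other gene lists below. In 2w Tg7 islets 3 were called up and 2 down, and in 12w Tg7 islets 2 up and 4 down, beside the shares of all tested genes given above. Their median log2 fold change was 0.15 at 2w and 0.06 at 12w. Among the 12 transcription factors and regulators of the loop, Hlf, the remaining D-box activator of the Dbp family, had 8.90, 11.5 and 9.74 CPM in 2w Wt and 17.4, 25.0 and 30.3 CPM in 2w Tg7. At 12w it had 18, 9.84 and 15.3 CPM in Wt and 27.0, 28.4 and 26.8 CPM in Tg7. It was upregulated without overlap at both ages, by 1.27 (SE 0.23, edgeR adjusted p = 0.0032) and 0.94 (SE 0.23, edgeR adjusted p = 0.0092). Dbp and Tef, the other D-box activators, were also called up at both ages, where 6.07% (2w) and 12.5% (12w) of tested genes were. The 12w call of Tef was lost without single libraries, and nothing is read from this count.

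Nfil3, the repressor that competes with them at D-boxes, moved the other way. It read 39.1, 30.1 and 32.8 CPM in 2w Wt and 21.1, 24.8 and 19.1 CPM in 2w Tg7, then 16.0, 24.8 and 19.2 CPM in 12w Wt and 9.70, 8.91 and 9.38 CPM in 12w Tg7. The genotypes did not overlap at either age. It was downregulated by −0.65 (SE 0.17, edgeR adjusted p = 0.029) at 2w and −1.10 (SE 0.18, edgeR adjusted p = 0.00062) at 12w. The 2w call was lost when any of 4 single 2w libraries was left out, with values from −0.68 to −0.54.

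Clock, the partner of BMAL1, had 104, 105 and 102 CPM in 2w Wt and 71.3, 57.2 and 58.9 CPM in 2w Tg7. At 12w it had 76.5, 59.7 and 132 CPM in Wt and 47.0, 48.0 and 42.1 CPM in Tg7, the value of 132 CPM again being Wt replicate 4. It was lower in every Tg7 library, by −0.73 (SE 0.22, edgeR adjusted p = 0.045) at 2w and −0.97 (SE 0.22, edgeR adjusted p = 0.0058) at 12w. The 2w call was lost without any 1 of 8 libraries, at values from −0.74 to −0.68, and without 12w Wt replicate 4 the 12w value was −0.57 (SE 0.13), still called. Bhlhe40, an E-box repressor, was upregulated by 0.98 (SE 0.16, edgeR adjusted p = 0.0015) at 2w and 0.94 (SE 0.16, edgeR adjusted p = 0.00068) at 12w. The 2w libraries spanned 20.4 to 23.8 CPM in Wt and 38.1 to 51.1 CPM in Tg7, and the 12w libraries 41.1 to 51.8 CPM in Wt and 71.0 to 95.5 CPM in Tg7.

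Of 6 kinases and ubiquitin ligases that act on PER and CRY proteins, none was called at 2w with edgeR or DESeq2 or had an unadjusted p under 0.05. Gsk3b alone was called at 12w, lower by −0.60 (SE 0.17, edgeR adjusted p = 0.019). Its call was lost without any 1 of the 3 12w Tg7 libraries, and without 12w Wt replicate 4 the value was −0.32 (SE 0.11), still called. Of 3 output genes, Nampt, which makes a precursor of NAD, was lower at 12w by −0.89 (SE 0.19, edgeR adjusted p = 0.0044). Without 12w Wt replicate 4 the Nampt value was −0.60 (SE 0.15), still called. Usp2, a rhythmic deubiquitinase gene, was higher at 2w by 1.24 (SE 0.36, edgeR adjusted p = 0.042), with 12.9, 21.1 and 13.6 CPM in Wt and 22.4, 28.4 and 61.0 CPM in Tg7, and by 0.67 without Tg7 replicate 3, when it was not called. Its call was also lost without any 1 of 5 other libraries, at values from 1.10 to 1.24. The other clock genes of the list did not pass the threshold in Tg7 islets at either age, with edgeR on all libraries, among them Cry2 at 0.16 (SE 0.20) and 0.02 (SE 0.20), and Arntl2 at 0.66 (SE 0.47) and 0.28 (SE 0.48). Without 12w Wt replicate 4, Cry2 at 12w was 0.43 (SE 0.10) and was called, and Arntl2 at 12w was −0.23 (SE 0.24). That fit called 4 of the 21 up and 4 down at 2w, where 18.7% of tested genes were called in either direction. At 12w it called 5 up and 4 down, where 23.8% of tested genes were called. The effect at 12w minus that at 2w was called for none of the 21 with edgeR, 4 having an unadjusted p under 0.05, and for Rora alone with DESeq2 (adjusted p = 0.031). Rora, an activator at RORE motifs, had a difference of −0.74 (SE 0.20, edgeR adjusted p = 0.10). Without 12w Wt replicate 4 the difference was called for Bhlhe41, an E-box repressor related to Bhlhe40, at 0.60 (SE 0.13).

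**Figure D5:**
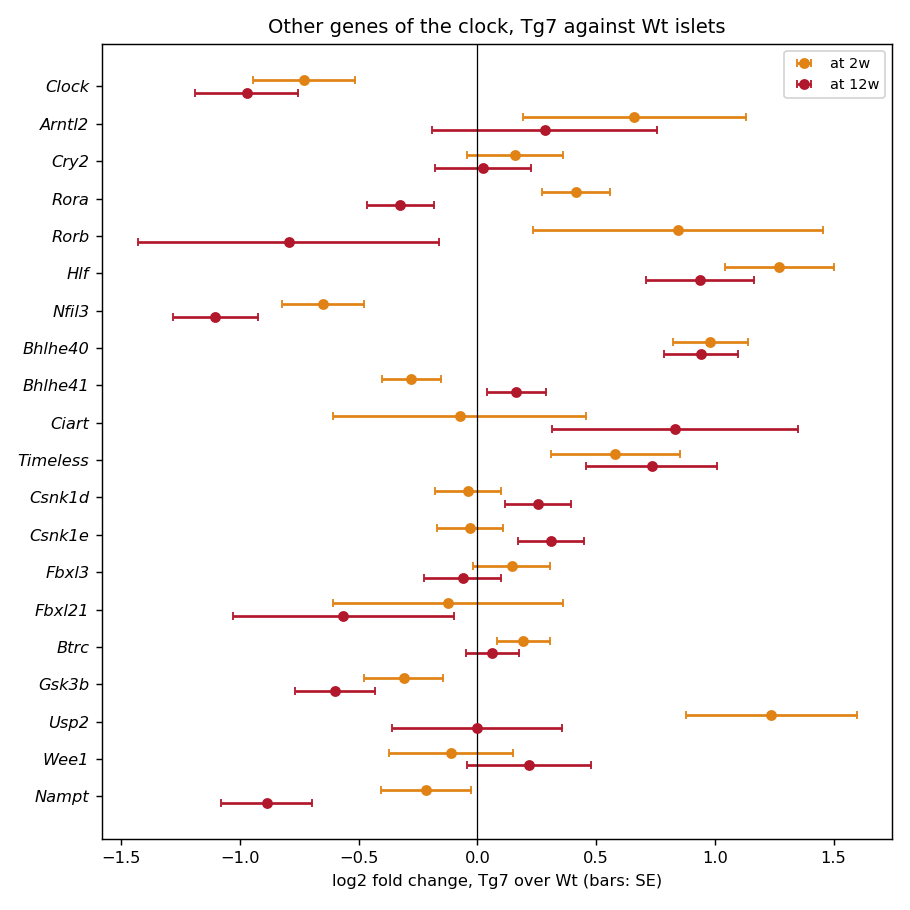
Log2 fold change, Tg7 over Wt, of 20 of the 21 further clock genes at 2w and 12w (x axis; points are estimates, bars SE, n = 3 libraries per group). Hlf and Bhlhe40 lie to the right and Clock and Nfil3 to the left at both ages, while Cry2 and the kinase and ligase genes lie nearer 0, with Fbxl21 having wide bars.

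Across age in Wt islets, 2 of the 21 were called up (Bhlhe40 and Rora), where 7.9% of tested genes were. In the same islets 3 were called down (Nfil3 and Csnk1e among them), against 7.91%. The Csnk1e call was lost without 2w Wt replicate 2 (−0.48) or 3 (−0.53), or without 12w Wt replicate 1 (−0.45). In Tg7 islets 2 were called up (Bhlhe40 and Bhlhe41), against 7.02% of tested genes, and 2 down (Nfil3 among them), against 6.01%. Bhlhe40 rose by 1.05 (SE 0.16, edgeR adjusted p = 0.00061) and 1.01 (SE 0.15, edgeR adjusted p = 0.00082). Nfil3 fell by 0.76 (SE 0.17, edgeR adjusted p = 0.0096) and by 1.21 (SE 0.18, edgeR adjusted p = 0.00062). Leaving out 12w Wt replicate 4 gave 3 calls up and 6 down in Wt, where 24.4% of tested genes were called in either direction. In Tg7 that fit gave 4 up and 3 down, where 20.2% were called. Clock was called lower in both, at −0.62 (SE 0.13) in Wt and −0.45 (SE 0.11) in Tg7. With all libraries Clock was uncalled, at −0.21 (SE 0.22) and −0.45 (SE 0.22).

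The 5 tested genes whose log2 level was most like that of Dbp over the 12 libraries were Nr1d1, with a Pearson r of 0.988, then Rtn1, Tmem59l, Gm996 and Crmp1, down to 0.98. Tmem59l, for example, averaged 7.53 and 39.7 CPM in Wt and Tg7 islets of 2w, and 44.7 and 269 CPM in those of 12w. Of the other members, Tef reached 0.940 with Dbp and ranked 56th among the tested genes, Per3 0.858, Nr1d2 0.796, Npas2 0.013, Per2 −0.260, Per1 −0.311, Arntl −0.654 and Cry1 −0.886. The genes most like Arntl were Prdm1, with 0.98, then Lama4, Ccdc8, Itga6 and Ptprb, down to 0.974, and Npas2 was at −0.681 with Arntl. Lama4 averaged 33.9 and 31.0 CPM in 2w Wt and Tg7 and 6.00 and 8.04 CPM at 12w. These correlations describe 4 groups of libraries, so any gene whose group means are spaced like those of the compared gene scores highly.

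Genes that respond to glucocorticoids and immediate early genes, both known inputs to the clock, were read in the same libraries. Of 6 glucocorticoid-responsive genes (Fkbp5, Tsc22d3, Zbtb16, Sgk1, Klf9 and Ddit4), none was called at 2w with edgeR or DESeq2 and none had an unadjusted p under 0.05, while Klf9 was called at 12w at −0.56 (SE 0.18, edgeR adjusted p = 0.036). Of 8 immediate early genes, none was called at 2w with edgeR or DESeq2, 2 having an unadjusted p under 0.05. At 12w Egr1, Egr2, Junb and Ier2 were called up, Egr2 by 2.47 (SE 0.40), where 12.5% of tested genes were called up. Nr4a1 was called down by −2.02 (SE 0.54), where 11.2% were called down. Its 12w groups overlapped, with 157, 434 and 61.3 CPM in Wt and 66.4, 31.5 and 63.2 CPM in Tg7. Fos, Fosb and Atf3 were not called with edgeR at either age, while DESeq2 called Fosb at 12w. The part of these responses in the clock gene differences was not tested.

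Markers of some cell types moved with genotype and age as well. Over all tested genes 6.07% were called up and 4.55% down in Tg7 islets at 2w, and 12.5% and 11.2% at 12w. Of 6 β-cell markers, 5 were called down at either age and all 6 were lower, their summed level in CPM being 108947 to 178169 (2w Wt), 26989 to 51967 (2w Tg7), 195022 to 478706 (12w Wt) and 99523 to 104885 (12w Tg7). Of 6 stellate and fibroblast markers, 5 were called up at 2w and 6 at 12w, with sums of 144 to 196, 253 to 352, 28.7 to 31.8 and 171 to 217 CPM in the same order of groups. The 5 endothelial markers were called up at 12w, and at 2w none was called with edgeR or DESeq2, 1 having an unadjusted p under 0.05. Their sums were 653 to 866, 744 to 823, 277 to 370 and 601 to 659 CPM. Of 4 α-cell, 2 δ-cell and 6 acinar markers, none was called between genotypes at either age with edgeR. The macrophage, ductal, Schwann and erythroid lists had 0 calls each at 2w and 1 each at 12w. No marker of these lists was at 0 in every library. In Wt islets the stellate and endothelial sums and Arntl were all lower at 12w than at 2w. Between genotypes at 12w both sums were higher in Tg7, while Arntl overlapped, averaging 2.61 CPM in Wt and 2.94 CPM in Tg7. At 2w the stellate sums were higher in Tg7, where Arntl was lower. The part of cell composition in the clock gene levels was not tested.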

How the data were processed

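Islet RNA was sequenced as paired-end reads from libraries made with an NEB Ultra II kit. Per the study's methods and the submitters' processing notes, the authors trimmed reads with Trimmomatic, aligned them to mm9 (NCBIM37) with TopHat2 (2.0.11) and deposited raw read counts per gene from featureCounts, so the values are counts without normalization. The strand setting and the treatment of multi-mapping reads are not stated in the sources consulted. The 10 members and all gene lists were chosen with earlier results of these data known.

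Ensembl identifiers were matched to symbols in the GENCODE vM1 annotation. Genes passing filterByExpr (minimum count 10, minimum total 15) were scaled by TMM and fitted with edgeR 4.0.16 (glmQLFit and glmQLFTest, R 4.3.3) on all 12 libraries with 1 mean per group, so that the groups shared 1 estimate of spread (common biological coefficient of variation 0.212). DESeq2 1.42.0, which the authors used, served as an alternative. The p-values measure the spread between pooled libraries. Benjamini-Hochberg adjustment ran over all 15961 tested genes. Log2 CPM values used a prior count of 2. All members and each other clock gene called between genotypes are named by rule, as are the 5 genes most like Dbp and Arntl. Rora, Csnk1e, Bhlhe41, Cry2 and Arntl2 were named after their values were seen, and 1 gene of the list is counted but not reported here. Same-numbered libraries did not deviate together (correlations of −0.17 to −0.01), so numbers were not taken as pairs. Promoter and miRNA sequences came from RefSeq tables (GRCm38.p6), and levels and coordinates of genes from mm9. The fit was checked on simulated counts.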

Additional observations from a re-analysis of the deposited data

How the results depend on the processing

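Dbp, Nr1d1 and Per3 between genotypes, and Dbp, Nr1d1 and Arntl between ages, kept their sign and their call in each alternative tried. Scaling by library size alone moved the median of all tested genes by 0.17 at 2w, 0.44 at 12w, −0.39 with age in Wt and −0.12 with age in Tg7, and the genotype effect at 12w minus 2w by 0.27. Under it Per2 changed sign at 2w (0.071) and 12w (0.29), Per1 at 12w (0.32) and Per3 with age in Wt (−0.31), and calls were lost for Cry1 and Clock at both ages, Nfil3 and Per1 at 2w, Gsk3b and Nampt at 12w, Tef with age in both genotypes, and Nr1d2 (0.80) and Rora (0.38) with age in Wt. None of these reversed values was called, while Per1 with age in Wt, which kept its sign, became called (−0.51). The split of all calls into higher and lower moved with the scaling, from 969 and 726 to 1670 and 317 at 2w, from 1989 and 1783 to 5198 and 360 at 12w (2418 and 1317 with upper-quartile factors), from 1261 and 1263 to 325 and 3795 with age in Wt, and from 1120 and 959 to 645 and 1061 with age in Tg7. Members split 5 and 0 at 2w and 4 and 0 at 12w with library size alone.

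Counts of all tested genes called for the effect at 12w minus 2w went from 188 to 563 with DESeq2, 347 with library size alone, 420 with no filter and 502 with the replicate block. Age in Wt gave 2524, and 4120 with library size alone. The other clock genes called for the effect at 12w minus 2w were 0, and 1 with DESeq2. Fitting each age alone called 3 members at 12w in place of 5.

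A fit with the replicate number as a block has no partner for 12w Wt replicate 4, which then adds nothing, so its values lie near those without that library. With the replicate block the counts were 2630 of all tested genes at 2w in place of 1695, 3817 with age in Wt in place of 2524, 8 members with age in Tg7 in place of 5, 9 other clock genes with age in Wt in place of 5 and 1 for the effect at 12w minus 2w. Per1 with age in Wt was 0.0090 there. The numbers did not pair the libraries, and the block is not a measure of effect size.

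Leaving out 1 library at a time gave these lowest and highest counts. All tested genes called ran from 754 to 3071 at 2w, from 2417 to 4036 at 12w, from 82 to 579 for the effect at 12w minus 2w, from 1336 to 4020 with age in Wt and from 1115 to 3329 with age in Tg7. The highest was without 12w Wt replicate 4 in each but the 12w comparison, where it was without Wt replicate 2. Members called ran from 4 (without 2w Wt replicate 1) to 9 at 2w, from 3 (without 12w Wt replicate 2) to 7 at 12w and from 3 (without 2w Tg7 replicate 3) to 8 with age in Tg7, each highest without 12w Wt replicate 4. Other clock genes called ran from 2 to 8 at 2w, from 0 to 1 for the effect at 12w minus 2w, from 4 to 9 with age in Wt and from 4 to 7 with age in Tg7. A group left with 2 libraries was assumed to vary like the others.

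Log2 values whose sign depended on 1 library ran as follows. Per2 ran from −0.30 to 0.062 at 2w, −0.37 to 0.16 at 12w, −0.44 to 0.071 with age in Wt and −0.35 to 0.0084 with age in Tg7. Per1 ran from −0.25 to 0.064 at 12w and from −0.30 to 0.015 with age in Wt. Nr1d2 ran from −0.019 to 0.68 and Arntl from −0.090 to 0.63 at 12w, and Per3 from −0.0062 to 0.22 with age in Wt. Members with few reads, Npas2 first, were the least precise, and 3 pooled libraries per group limit every comparison.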
